A study of Mus musculus with 4 samples.

Results

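The chaperones and prolyl isomerases were the 67 genes, of 6352 in the table, whose symbols place them among the Hsp70, Hsp90, Hsp60 and J-domain families, the CCT chaperonin (with Tcp1), prefoldin, the FKBP and cyclophilin isomerases, the Bag proteins and Stip1. No measured value entered this rule, but it was set with earlier results of these data known. By known localization they were divided into 39 of the cytosol, 14 of the ER, 9 of mitochondria and 4 of the nucleus, and the 1 gene listed as Dnaja7 was not assigned.

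Ribosome footprints were sequenced from primary cultured mouse cortical neurons exposed for 3 min to 5 µg/ml harringtonine, which holds ribosomes at translation initiation sites, so that a value here is the footprints at 1 transcript's start site. It was asked whether initiation differed in neurons without Ltn1, the ubiquitin ligase that marks nascent chains on stalled ribosomes, with or without knockdown of Ttc3, another ubiquitin ligase. There were 4 libraries, from WT and from Ltn1 KO neurons with either RNAi, and each condition had 1. Their names here, WT SC, KO SC, WT TTC and KO TTC, join the genotype to the code's letters, because titles and characteristics give scrambled RNAi to the TTC libraries and Ttc3 RNAi to the SC libraries, whereas the letters spell the opposite. Every result is therefore given by code and not by RNAi. The paper's ranked list of start-site differences between KO and WT has Dnajc9 and Dnajc19 as lower in KO. Both had reads in WT SC alone, so that list cannot rest on the TTC pair alone. It also has Hspa5 and Bag6 as lower in KO. Their log2 differences were -1.27 and -0.48 in the SC pair, and 0.04 and 0.24 in the TTC pair. The listed directions of these genes are thus those of the SC pair. The list itself names no RNAi. The knockout allele and the number of animals behind a library are not given in the sources used here.

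The libraries held 1460425 to 3655827 reads, of which 6.06% to 6.85% lay at the listed sites. The table is in RPM, reads scaled to 1000000 reads of the whole library, and 1 read was worth 0.274 to 0.685 RPM. Values are given in the order WT SC, KO SC, WT TTC, KO TTC unless a library is named. Ltn1 itself had 10, 37, 2 and 0 reads, and Ttc3 had 3, 2, 0 and 0. Ltn1 reads thus were most numerous in a library labelled KO; a start site that lies outside the deleted sequence checks nothing, and WT and KO below are the labels. Of the marker genes, all 11 of neurons were measured (summed level 1751 to 2059 RPM), with 6 of 7 of astrocytes (89.8 to 180 RPM) and 6 of 8 of the oligodendrocyte lineage (12 to 66.4 RPM). None of the 7 microglial or 4 endothelial markers was in the table. Both glial sums were lowest in KO SC.

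Hsp70 chaperones bind exposed hydrophobic stretches of unfolded chains and release them in cycles driven by ATP; J-domain proteins bring clients and trigger hydrolysis, and exchange factors such as the Bag proteins and Hsp110 reset the cycle. Hsp90 finishes the folding of kinases and receptors, prefoldin hands actin and tubulin to the ring of CCT, and FKBPs and cyclophilins turn the peptide bond before proline. Neurons rely on all of these to keep axonal and synaptic proteins folded, and ribosome-associated quality control, to which Ltn1 belongs, removes the chains that never reach them.

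The 67 genes had a median level of 7.81 RPM (mean of the 4 libraries), against 2.84 RPM for all transcripts, and ranged from 0.205 to 204 RPM. All were detected in at least 1 library and 54 in all 4. Together they took 2.15% to 2.26% of the listed reads, and their summed level was 1384 RPM in WT SC and 1368 in KO SC, with 1474 and 1478 in the TTC libraries of WT and KO. The ratio of these sums between KO and WT was 0.988 (95% interval 0.941 to 1.04) in the SC pair and 1.00 (0.953 to 1.05) in the TTC pair, where all transcripts gave 0.95 and 0.977. The summed level of the class thus did not differ between KO and WT beyond counting error. Sums of some families did, in both directions. In the TTC pair the ratio was 1.28 (1.10 to 1.51) for FKBPs, 1.20 (1.05 to 1.36) for J-domain proteins and 0.719 (0.590 to 0.878) for cyclophilins. In the SC pair it was 0.845 (0.762 to 0.936) for Hsp70s. Of these, 2 organelle members were called lower, Hspa5 (ratio 0.398) and Hspa9 (0.344). Hspa8, the most abundant, had a ratio of 0.960, so the lower sum is not a trait of the whole family. The intervals for Hsp90, prefoldin and the Bag proteins with Stip1 included 1 in both pairs. Sums of CCT, the ER and mitochondria are given below. Levels of different genes are reads at 1 start site each, over a window that is not stated, and do not compare amounts of protein. Footprints in a bulk lysate also cannot separate less initiation from less mRNA or from fewer cells of a type.

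With 1 library per condition, 2 libraries were compared with a two-sided exact binomial test on reads, with Benjamini-Hochberg adjustment over all transcripts, called at an adjusted p of 0.05. The test compares libraries, not conditions, and covers counting error only. The scatter between libraries was wider than that: over all transcripts with at least 20 reads in a pair, the mean squared deviation was 3.28 times the counting variance in the SC pair, 3.17 times in the TTC pair, 4.15 times between the WT libraries and 5.12 times between the KO libraries. When the test was widened by these factors, an alternative added after seeing the data, 0 of the 38 to 45 members with enough reads were called in any pair. The calls below are thus calls beyond counting error, and none of those tested passed once this wider scatter was allowed for. Calls with under 20 reads in the pair (Dnaja4, Dnajc9, Dnajc19, Erp29, which is not a member, and Dnajb1 and Hspa12a between the WT libraries) were not tested for it. The intervals given are 95% intervals for counting error.

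In the SC pair (KO SC against WT SC), 1 member was called higher and 4 lower, which is 7.69% of the 65 with reads, where 7.38% of all transcripts were called (2.63% higher, 4.74% lower). In the TTC pair (KO TTC against WT TTC), 4 were called higher and 4 lower, 12.7% of 63 against a background of 7.54% (3.14% higher, 4.41% lower). Under median-of-ratios scaling these counts became 2 higher and 4 lower in the SC pair and 6 and 3 in the TTC pair. Over all transcripts the SC pair moved with that scaling from 141 higher and 254 lower to 200 and 178, and the TTC pair from 171 and 240 to 195 and 208. The members' higher levels give the test more reads than in most transcripts. Among transcripts averaging 5 RPM or more, 1 member was called higher and 2 lower in the SC pair, with 70 and 175 of all 2305 with reads. In the TTC pair 3 members were called higher and 4 lower, with 108 and 150 of all 2307. Hspa9 (lower) and Cct5 (higher) were called in both pairs. The pairs share no library, and 52.2% of the 67 genes had the same sign in both. The share was 60.0% of the 40 members averaging 5 RPM or more, and 57.5% of all 2314 such transcripts. The members' median difference of log2(RPM + 1) was -0.003 for the SC libraries and 0.000 for the TTC libraries, and the median of all transcripts was 0.000 for both.

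**Figure D1:**
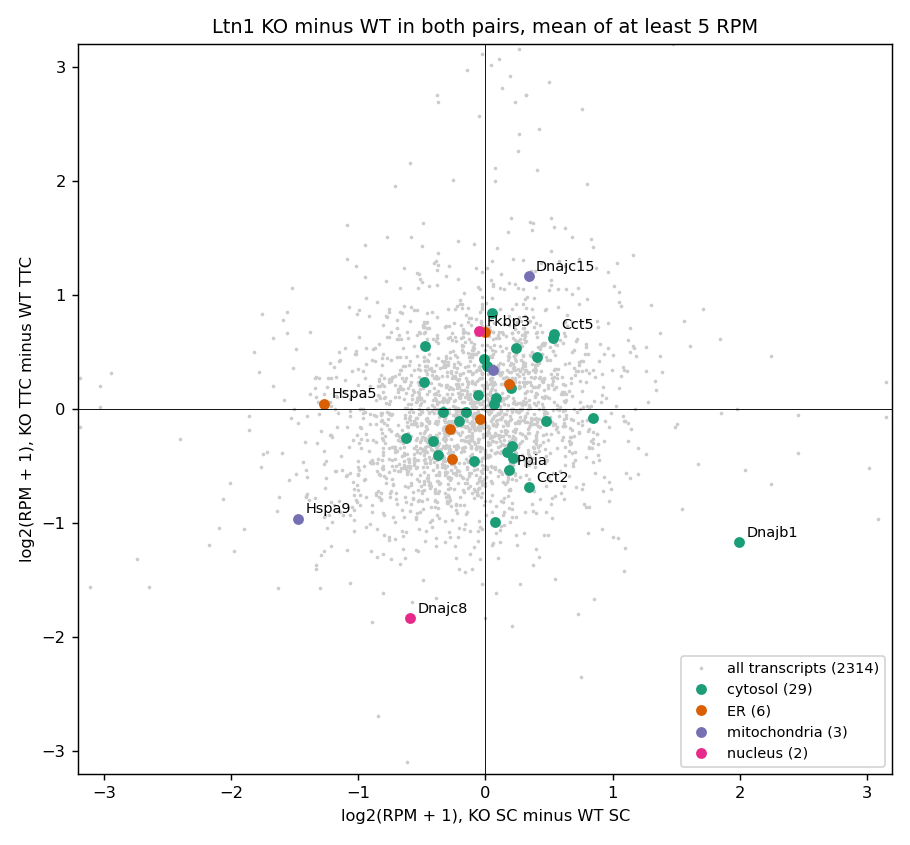
Difference of log2(RPM + 1) between KO and WT, on the x axis for the SC and on the y axis for the TTC libraries, of the 2314 transcripts averaging 5 RPM or more (grey, of which 26 lie beyond the axes) and the members among them, colored by compartment. Members called in either pair or in the test of the difference between pairs are named; Hspa9 and Dnajc8 lie low on both axes, Cct5 and Dnajc15 high on both, and Hspa5 is low on the x axis alone.

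The major chaperones of the cytosol had similar levels in all 4 libraries. Hspa8, the constitutive Hsp70 (Hsc70), was the most abundant member, at 193 RPM in WT SC and 186 in KO SC, with 210 and 228 in the TTC libraries of WT and KO. Its ratio was 0.960 (0.841 to 1.10) in the SC pair and 1.09 (0.952 to 1.24) in the TTC pair, neither called (a call between the KO libraries is given with the others of that pair). Reads of Hspa8 and Ppia are uncertain because both genes have many processed pseudogenes.

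Hsp90ab1, the constitutive Hsp90, was found at 89.7, 80.4, 99.3 and 97.4 RPM. Its inducible paralog Hsp90aa1 was found at 15.3, 13.1, 15.1 and 14.0 RPM. The ratio between the 2 sites stayed at 5.87 to 6.98 over the libraries, and no difference between libraries was called for either.

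The co-chaperones that serve these machines were not called either. Hspa4 and Hsph1, Hsp110 proteins that exchange nucleotide on Hsp70, stood at 35.3, 35.5, 30.1 and 39.4 RPM and at 29.6, 31.4, 23.3 and 24.9 RPM. Stip1, which links Hsp70 to Hsp90, stood at 27.7, 32.2, 36.3 and 28.7 RPM, and Bag6, which sorts hydrophobic clients, at 28.1, 19.8, 24.0 and 28.4 RPM. The prefoldin subunits Pfdn2 (25.3, 29.2, 19.9 and 22.7 RPM) and Pfdn5 (23.9, 25.1, 19.9 and 20.5 RPM) differed from each other by 1.00 to 1.16 fold within a library, and both had their higher levels in the SC libraries. In these 6 genes the intervals of the KO to WT ratio all included 1.

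**Figure D2:**
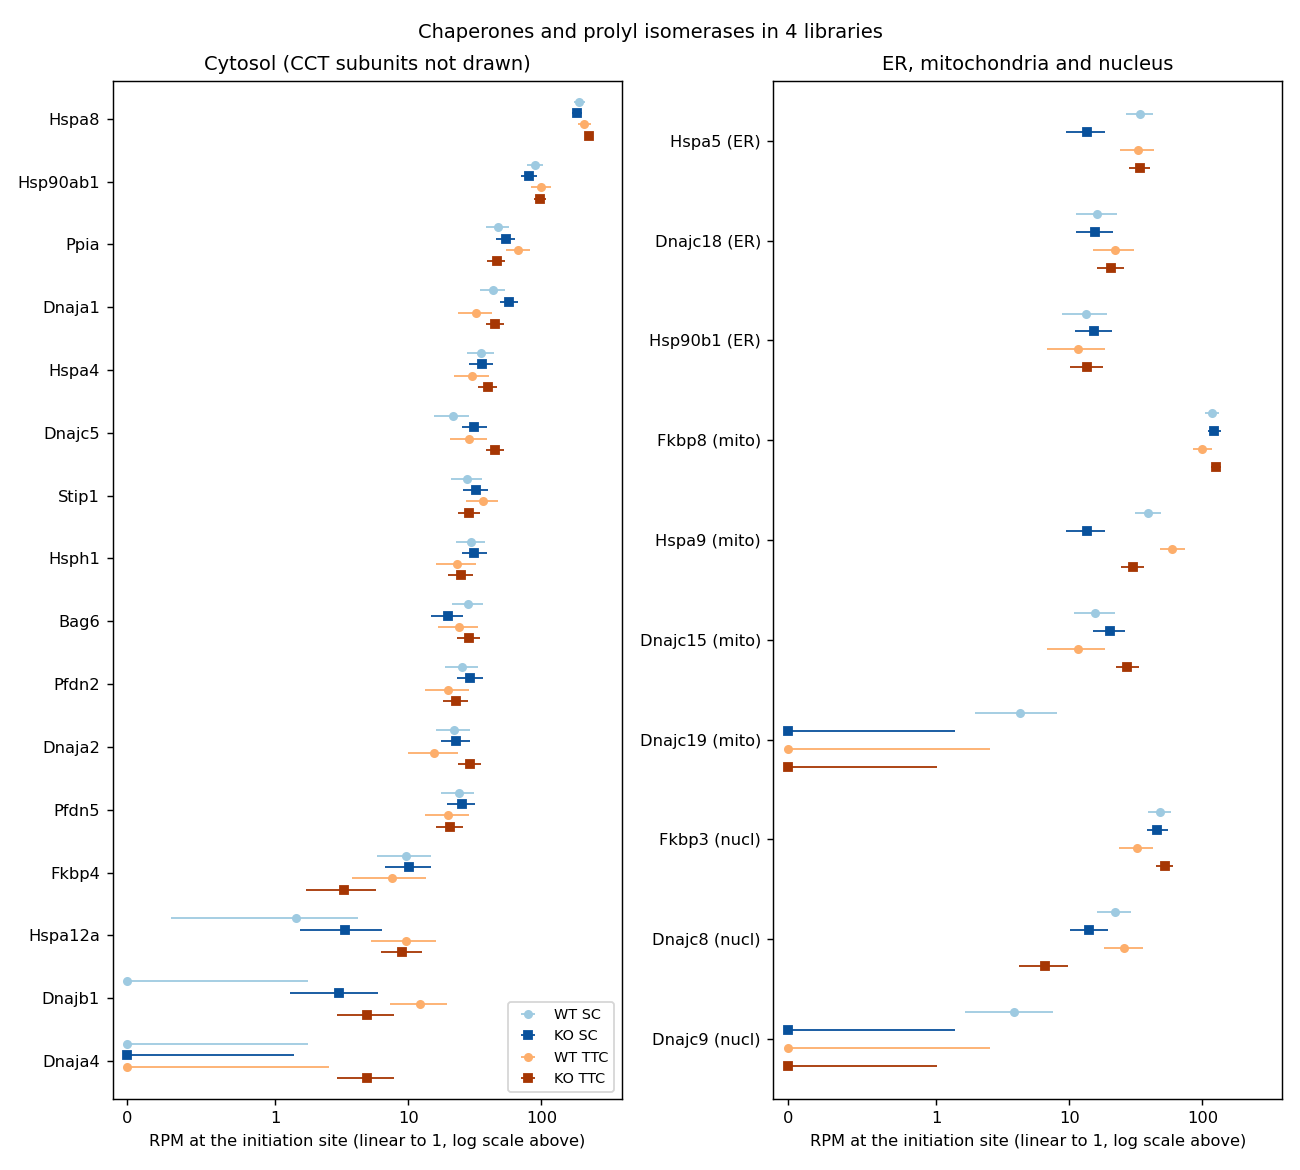
Footprints at the start site in each library (RPM, linear up to 1 and on a log scale above) of the named members, with 95% Poisson intervals of the reads; circles are WT, squares KO, blue the SC and orange the TTC libraries. Most cytosolic members (left, CCT subunits drawn separately) overlap across libraries, while Hspa5 in KO SC, Hspa9 in both KO libraries and Dnajc8 in KO TTC (right) lie below the others.

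The J-domain proteins of the cytosol had more range. Dnaja1 and Dnaja2, general partners of Hsc70, stood at 42.9, 57.2, 32.2 and 44.6 RPM and at 21.9, 22.8, 15.7 and 29.0 RPM, not called in any comparison. Dnajc5 (cysteine string protein), which guards SNARE folding on synaptic vesicles, stood at 21.5, 31.4, 28.8 and 44.9 RPM. Its ratio was 1.46 (1.01 to 2.15) in the SC pair and 1.56 (1.11 to 2.24) in the TTC pair, and neither passed the adjusted threshold. Both KO libraries lay above both WT libraries for Dnajc5, but by a narrow gap (31.4 against 28.8 RPM).

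A pair of low-level J-domain genes had reads in some libraries and none in others. Dnajb1, the heat-inducible Hsp40, had 0, 8, 18 and 18 reads, or 0, 2.99, 12.3 and 4.92 RPM, so that WT SC was empty and WT TTC highest. Its level in WT TTC was at least 8.61-fold higher than the floor of 3 reads in WT SC (exact test, adjusted p = 1.13e-05; the lower 95% limit of the ratio is 6.31). Dnaja4 had 18 reads (4.92 RPM) in KO TTC and 0 in the other 3 libraries, at least 2.40-fold higher than the floor in WT TTC (exact test, adjusted p = 0.0456) and at least 4.39-fold higher than that in KO SC (exact test, adjusted p = 9.67e-04), with lower 95% limits of the ratio of 1.76 and 3.21. Both rest on few reads in a single start window.

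Ppia (cyclophilin A), the most abundant cyclophilin, stood at 47.2, 53.9, 67.1 and 46.0 RPM. It was called lower in KO TTC than in WT TTC (ratio 0.685, 0.531 to 0.888; exact test, adjusted p = 0.0463) and lost the call under both rescalings (adjusted p = 0.0739 and 0.0857). In WT TTC all 5 cyclophilins had higher levels than in WT SC, none of them called, where 43.3% of all transcripts were higher. Of these, Ppif rests on 2 and 5 reads in WT SC and WT TTC, and Ppig on 3 and 4. The summed level of the family was 75.4, 74.4, 109 and 78.2 RPM. WT TTC thus had the highest sum and was the highest library for 4 of the 5, while Ppig was highest in KO TTC. Fkbp4 (FKBP52), an Hsp90 partner of steroid receptors, stood at 9.54, 10.1, 7.53 and 3.28 RPM and was lowest in KO TTC. Hspa12a, a distant Hsp70 relative, stood at 1.43, 3.37, 9.59 and 9.03 RPM, high in both TTC libraries. The 15 cytosolic members outside the rule for named genes, Hsp90aa1 among them, had means of 0.230 to 14.4 RPM and no call.

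CCT is a ring built from 8 different subunits in equal numbers, and all 8 were measured. Their start sites were far from equal: the highest, Cct2, exceeded the lowest, Cct3, by 11.2, 12.5, 12.1 and 10.0 fold. Cct2 was first and Cct3 last in every library, and in WT SC and WT TTC the order of all 8 was the same. The sum of the 8 was 328 RPM in WT SC and 371 in KO SC, with 375 and 332 in the TTC libraries of WT and KO, with ratios of 1.13 (1.02 to 1.25) in the SC pair and 0.885 (0.799 to 0.981) in the TTC pair. The direction of the sum therefore differed between pairs.

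Cct5 was the subunit called in both pairs. It stood at 51.0 RPM in WT SC and 74.8 in KO SC, with 35.6 and 56.6 in the TTC libraries of WT and KO, so that both KO libraries lay above both WT libraries. The ratio was 1.47 (1.15 to 1.87; exact test, adjusted p = 0.0244) in the SC pair and 1.59 (1.17 to 2.20; exact test, adjusted p = 0.0374) in the TTC pair. The Cct5 gene lies at chr15:31590800-31601846 (GRCm38.p6, RefSeq).

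Cct2 gave opposite differences. It stood at 69.7, 88.7, 124 and 76.6 RPM, with WT TTC far above the other 3 libraries. KO TTC was lower than WT TTC (ratio 0.618, 0.511 to 0.749; exact test, adjusted p = 8.29e-05), whereas in the SC pair the ratio was 1.27 (1.03 to 1.58) and not called. The difference between the pairs was itself called (-1.03 on the log2 scale; exact test, adjusted p = 1.47e-04). Without Cct2, the CCT sum was 259, 282, 251 and 255 RPM, with a TTC ratio of 1.02 (0.900 to 1.15). The lower CCT sum in KO TTC was thus not seen without this subunit. The remaining subunits went both ways in the TTC pair, from Cct8 at 0.721 (0.537 to 0.976) to Cct5 at 1.59 (1.17 to 2.20), and offset each other. The gene lies at chr10:117050997-117063852 (GRCm38.p6, RefSeq).

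The other 6 subunits were not called in either pair. Tcp1 stood at 27.2, 26.9, 31.5 and 42.9 RPM, Cct3 at 6.20, 7.11, 10.3 and 7.66, Cct4 at 23.9, 33.7, 23.3 and 21.6, Cct6a at 34.3, 40.0, 34.2 and 25.2, Cct7 at 62.5, 49.4, 67.1 and 65.9, and Cct8 at 53.4, 50.1, 49.3 and 35.6 RPM. In the SC pair 5 of 8 subunits were higher in KO and in the TTC pair 2 of 8, several of them by little, and differences among subunits were not tested.

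**Figure D3:**
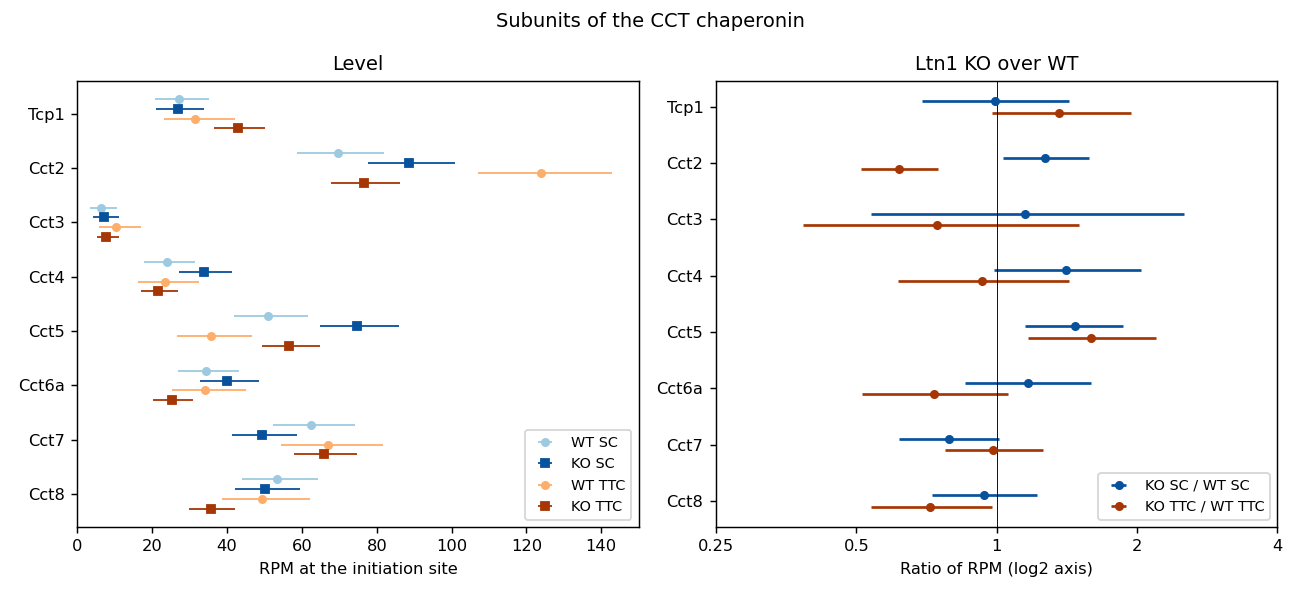
Levels of the 8 CCT subunits in RPM with 95% Poisson intervals (left) and the ratio of KO to WT in the SC (blue) and TTC (red) pairs on a log2 axis with 95% intervals (right). Cct5 lies right of 1 in both pairs, and Cct2 lies right of 1 in the SC pair and left of it in the TTC pair.

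Among the 14 genes of the ER, the differences gathered on Hspa5 (BiP, GRP78), the Hsp70 of the ER lumen, which folds secretory chains and holds the sensors of the unfolded protein response. It stood at 33.9 RPM in WT SC and 13.5 in KO SC, with 32.9 and 33.9 in the TTC libraries of WT and KO. A single library, KO SC, was low, and the other 3 were nearly equal. The ratio was 0.398 (0.259 to 0.602; exact test, adjusted p = 2.97e-04) in the SC pair and 1.03 (0.734 to 1.47) in the TTC pair, and the difference between the pairs was called (1.31 on the log2 scale; exact test, adjusted p = 0.0174). The gene lies at chr2:34772090-34776529 (GRCm38.p6, RefSeq). The astrocyte markers (149, 89.8, 180 and 128 RPM) and the oligodendrocyte markers (37.7, 12, 66.4 and 39.7 RPM) were also lowest in KO SC; their part in the value of Hspa5 was not tested.

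Hspa5 and several of its partners are induced through the ER stress response element, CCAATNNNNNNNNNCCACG. These letters were searched on both strands in the RefSeq promoters (GRCm38.p6, 250 bases before to 50 after the start), in which 0.137% of 27025 genes hold them. Of the 12 ER members with a promoter sequence, 3 held the element, namely Hspa5, Hsp90b1 and Dnajc3, and their matches are shown because the 3 genes can be set side by side. Of 49 other folding genes with a promoter sequence, 3 held it as well, Calr, Canx and Pdia6, all of the ER. Capitals mark the element in each.
Hspa5, chr2:34772015-34772053, plus strand: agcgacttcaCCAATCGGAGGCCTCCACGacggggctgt
Hsp90b1, chr10:86705628-86705666, minus strand: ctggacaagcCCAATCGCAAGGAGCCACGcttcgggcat
Hsp90b1, chr10:86705523-86705561, minus strand, element on the opposite strand: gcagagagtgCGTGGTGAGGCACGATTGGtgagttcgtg
Dnajc3, chr14:118937817-118937855, plus strand: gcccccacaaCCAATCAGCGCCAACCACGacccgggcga
A match of letters is a description and does not show binding.

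Levels of the genes with the element went different ways. Pdia6, a disulfide isomerase, stood at 11.4, 4.86, 18.5 and 16.4 RPM, lowest in KO SC like Hspa5, with an SC ratio of 0.425 (0.199 to 0.868; exact test, adjusted p = 0.113). Calr (calreticulin), a lectin chaperone, stood at 9.54, 8.60, 13.0 and 12.9 RPM, also lowest in KO SC but with an SC ratio of 0.902 (0.474 to 1.73). Canx (calnexin) had 4, 3, 1 and 6 reads. Hsp90b1 (GRP94), the Hsp90 of the ER lumen, stood at 13.4, 15.3, 11.6 and 13.7 RPM, highest in KO SC, with ratios of 1.15 (0.693 to 1.93) in the SC pair and 1.17 (0.666 to 2.17) in the TTC pair. Dnajc3 (p58IPK), a co-chaperone of BiP, had 1, 4, 4 and 5 reads, too few, like those of Canx, for a difference to be detectable at this depth. Dnajb11 (ERdj3), which brings nascent chains to BiP, stood at 4.29, 3.37, 7.53 and 6.56 RPM, lower in both SC libraries. Dnajb9 (ERdj4) stood at 10.5, 10.5, 8.22 and 13.7 RPM, Ppib (cyclophilin B) at 10.5, 8.60, 18.5 and 13.4 RPM, and Dnajc18, of the ER membrane, at 16.2, 15.7, 21.9 and 20.5 RPM; none of these was called. The 11 ER members other than Hspa5, Hsp90b1 and Dnajc18 had means of 0.477 to 12.7 RPM, and 1 of the 14, Hspa5, was called in any comparison.

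Summed over its 14 members, the ER level was 107 RPM in WT SC and 80.4 in KO SC, with 123 and 118 in the TTC libraries of WT and KO, with a ratio of 0.749 (0.619 to 0.907) in the SC pair and 0.962 (0.806 to 1.15) in the TTC pair. Without Hspa5 the sums were 73.5, 67.0, 89.7 and 84.0 RPM and the SC ratio 0.911 (0.731 to 1.14), so the lower ER sum in KO SC was for the most part that of Hspa5. KO SC was the lowest library for 6 of 14 ER members (42.9%), where it was so for 23.1% of all transcripts. Of those averaging 5 RPM or more, it was the lowest for 4 of 6 ER members and for 36.9% of transcripts.

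Other folding genes of the ER that are not members show where Hspa5 stands among its neighbors. Of 22 listed, 16 were measured. In the SC pair 2 were called lower, 13.3% of the 15 with reads, against 4.74% of all transcripts. Pdia3 (ERp57), the isomerase that works with calnexin and calreticulin, stood at 32.0, 16.1, 46.6 and 30.1 RPM (SC ratio 0.503, 0.335 to 0.749; exact test, adjusted p = 0.0118). Pdia4 (ERp72) stood at 18.6, 7.86, 26.0 and 13.4 RPM and was called lower in both pairs (exact test, adjusted p = 0.0278 and 0.0419), and both calls were lost under median-of-ratios scaling (exact test, adjusted p = 0.0568 and 0.0597). Erp29, a chaperone of secretory proteins, had 6 reads in WT TTC and 1 in KO TTC (4.11 against 0.274 RPM), and no read in the SC libraries. On these few reads it was called lower in the TTC pair (exact test, adjusted p = 0.0426). Between the KO libraries 3 of the 16 (18.8%, against 10.9% of all transcripts) were called higher in KO TTC, as Hspa5 was: Pdia3 (ratio 1.87; exact test, adjusted p = 0.00498), Pdia6 (3.37; exact test, adjusted p = 3.10e-04) and Manf, a secreted factor that binds BiP (2.66; exact test, adjusted p = 0.00678). KO SC was the lowest library for 5 of these 16 (31.2%), Calr, Pdia3, Pdia4, Pdia6 and Manf. The 16 summed to 126, 85.3, 170 and 134 RPM, again lowest in KO SC, as the glial markers were.

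**Figure D4:**
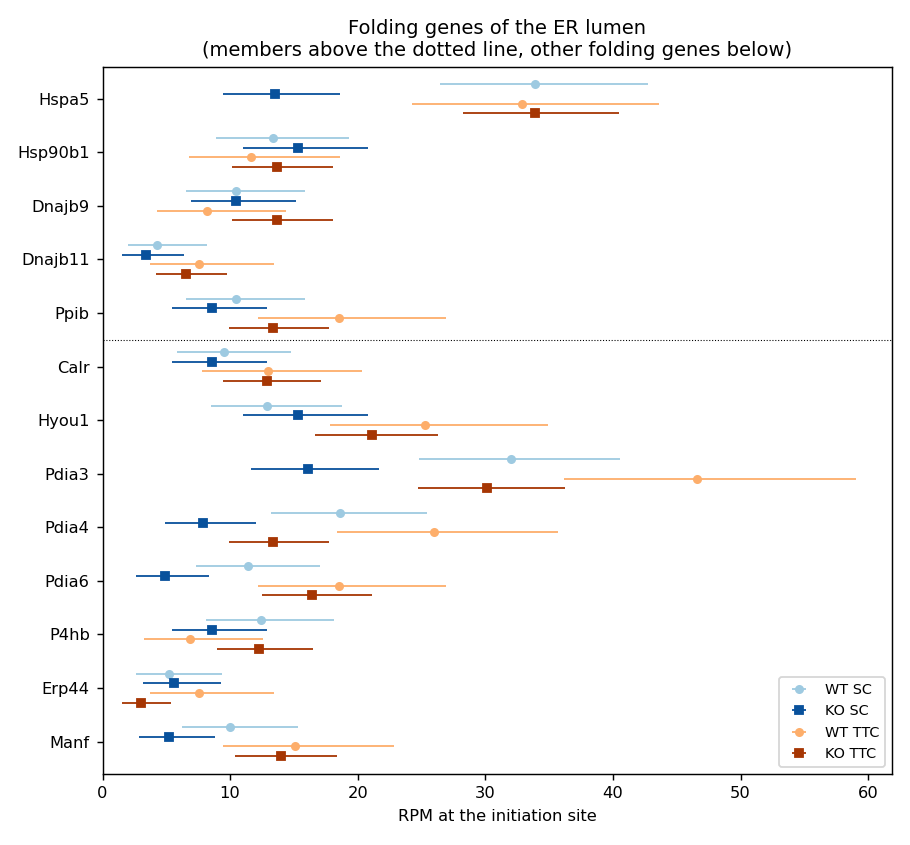
Start-site footprints in RPM with 95% Poisson intervals for 5 members of the ER lumen (above the dotted line) and the 8 other ER folding genes with a mean of at least 5 RPM (below), in 4 libraries. KO SC (dark blue) is lowest for Hspa5, Dnajb11, Ppib, Calr, Pdia3, Pdia4, Pdia6 and Manf, and not for Hsp90b1, Dnajb9, Hyou1, P4hb or Erp44.

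Among the 9 mitochondrial genes, Hspa9 (mortalin), the Hsp70 of the matrix that pulls in imported chains and folds them, was lower in both KO libraries. It stood at 39.1 RPM in WT SC and 13.5 in KO SC, with 59.6 and 30.1 in the TTC libraries of WT and KO. Both WT libraries lay above both KO libraries, and each TTC library lay above the SC library of its genotype. The ratio was 0.344 (0.226 to 0.515; exact test, adjusted p = 5.08e-06) in the SC pair and 0.505 (0.378 to 0.677; exact test, adjusted p = 2.74e-04) in the TTC pair, and the difference between pairs was not called (0.51 on the log2 scale; exact test, adjusted p = 0.712). The astrocyte and oligodendrocyte marker sums were also lower in KO than in WT in both pairs; their part in the value of Hspa9 was not tested.

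Of the other mitochondrial members, Dnajc19 was called lower in the SC pair and Dnajc15 higher in the TTC pair. Dnajc15, a J-domain protein of the import motor, stood at 15.7, 20.2, 11.6 and 27.4 RPM, with both KO libraries above both WT libraries. It was called higher in the TTC pair (ratio 2.35, 1.40 to 4.19; exact test, adjusted p = 0.0119), with a ratio of 1.28 (0.817 to 2.04) in the SC pair. Dnajc19 (Tim14), its relative in the same motor, had 9 reads (4.29 RPM) in WT SC and 0 in the other 3, at least 3.83-fold higher in WT SC than the floor in KO SC (exact test, adjusted p = 0.0137; the upper 95% limit of the KO to WT ratio is 0.397). Fkbp8 (FKBP38), anchored in the outer membrane, was the second most abundant member at 118, 123, 100.0 and 127 RPM, not called in any comparison.

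Ppif (cyclophilin D), the cyclophilin of the matrix, had 2, 0, 5 and 7 reads, or 0.954, 0, 3.42 and 1.91 RPM. It was lower in KO in both pairs without a call, on too few reads for the direction to be read. In each pair 4 of the 9 mitochondrial members were higher in KO and 4 lower. The chaperonin Hspd1 (Hsp60), which folds matrix proteins, had 7, 5, 3 and 13 reads, so its start site was among the low ones and no difference was detectable. It was 1 of 5 mitochondrial members with means of 0.205 to 3.55 RPM and no call. The mitochondrial sum was 186, 163, 186 and 197 RPM. Without Hspa9 it was 146, 149, 126 and 167 RPM, with ratios of 1.02 (0.876 to 1.19) in the SC pair and 1.32 (1.12 to 1.57) in the TTC pair. Of 14 measured folding, import and quality control genes of mitochondria that are not members, Phb2 (prohibitin 2) was called lower in the SC pair (13.4, 3.37, 11.6 and 8.75 RPM; exact test, adjusted p = 0.00546) and none in the TTC pair.

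**Figure D5:**
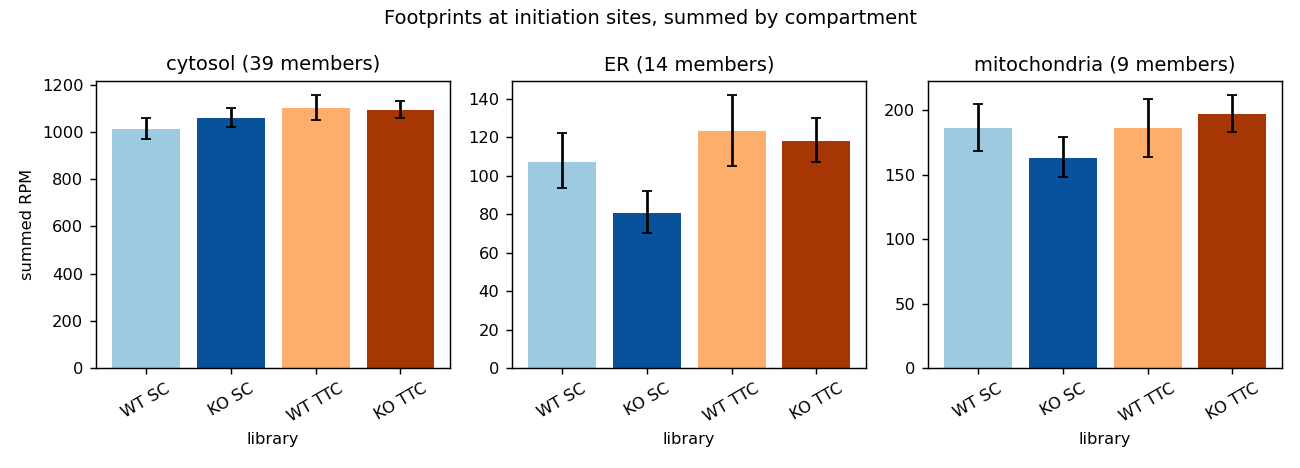
Start-site footprints summed over the cytosolic, ER and mitochondrial members in each library (RPM, axes from 0 and of different height), with 95% Poisson intervals. The cytosolic sum runs from 1014 to 1102 RPM, and the ER sum is 80.4 RPM in KO SC against 107 to 123 RPM in the others.

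All 4 nuclear genes were lower in KO in the SC pair (median difference of log2(RPM + 1) -0.534, against 0.000 for all transcripts), 1 of them called, and in the TTC pair they went different ways. Dnajc8, which associates with splicing factors, stood at 21.9, 14.2, 26.0 and 6.56 RPM, with both KO libraries below both WT libraries. It was called lower in the TTC pair (ratio 0.252, 0.145 to 0.432; exact test, adjusted p = 1.30e-05), with an SC ratio of 0.648 (0.410 to 1.02). Fkbp3 (FKBP25) stood at 47.7, 46.0, 32.2 and 52.2 RPM, low in WT TTC alone, and was called higher in KO TTC (TTC ratio 1.62, 1.17 to 2.28; exact test, adjusted p = 0.0387). Dnajc9, a histone chaperone, had 8 reads in WT SC (3.82 RPM) and 0 in the other 3, at least 3.40-fold higher than the floor in KO SC (exact test, adjusted p = 0.0249; upper 95% limit of the KO to WT ratio 0.459). Ppig had 2 to 11 reads.

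Within a genotype, the TTC library was compared with the SC library. Between the WT libraries 3 members were called higher in WT TTC and 0 lower, 4.76% of 63, where 10.8% of all transcripts were called (7.02% higher, 3.82% lower). The 3 were Cct2 (ratio 1.78; exact test, adjusted p = 1.99e-05), Dnajb1, and Hspa12a (ratio 6.70; exact test, adjusted p = 0.0119). At an unadjusted p under 0.05 by the same exact test, 5 members were higher and 5 lower in WT TTC, and of all 5345 transcripts with reads 706 were higher and 461 lower.

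Between the KO libraries 8 members were called higher in KO TTC and 6 lower, 22.2% of 63 against a background of 16.6% (10.9% higher, 5.71% lower). These calls depended on the scaling: under rescaling to the same sum, and under median-of-ratios factors, the split became 3 higher and 8 lower, while that of all transcripts went from 613 and 321 to 410 and 401 and to 388 and 420. The calls toward KO TTC that remained under both were Hspa5 (ratio 2.52, 1.73 to 3.76; exact test, adjusted p = 9.49e-06), Hspa9 (2.23, 1.52 to 3.35; exact test, adjusted p = 2.70e-04) and Dnaja4. Those that were lost were Hspa8 (ratio 1.23), Cct7 (1.33), Tcp1 (1.59), Dnajc5 (1.43) and Hspa12a (2.68). The calls of Hspa5 and Hspa9 here and in the SC pair share the KO SC library.

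Of 8 CCT subunits, 6 were called between the KO libraries (75.0%, against 16.6% of all transcripts). Tcp1 and Cct7 were higher in KO TTC, and Cct4, Cct5, Cct6a and Cct8 lower, at ratios of 0.642, 0.757, 0.629 and 0.709. Fkbp4 (ratio 0.325, 0.150 to 0.663; exact test, adjusted p = 0.00977) and Dnajc8 (0.462, 0.265 to 0.790; exact test, adjusted p = 0.0233) were lower in KO TTC as well. Under both rescalings Tcp1 and Cct7 lost their calls, and Cct4, Cct5, Cct6a and Cct8 were still called lower. CCT subunits other than Cct3 averaged 25.6 RPM or more, which gives the test more reads than in most transcripts. Of the 2312 transcripts averaging 5 RPM or more, 416 were called higher in KO TTC and 154 lower. Members made up 7 and 6 of these.

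In the test of the difference between the pairs, 1 member was called toward a higher KO to WT ratio in the TTC pair (Hspa5) and 2 toward a lower one (Cct2 and Dnajb1), 4.48% of 67 against 2.55% of all transcripts (1.49% higher, 1.06% lower). Of the 61 other folding genes measured, 1 was called higher and 4 lower in the SC pair (8.33% of those with reads, against 7.38% of all transcripts) and 0 higher and 4 lower in the TTC pair (6.78% against 7.54%). Between the WT libraries 4 were called higher and 1 lower (8.47% against 10.8%), between the KO libraries 6 higher and 0 lower (9.84% against 16.6%), and 2 in the test of the difference (3.28% against 2.55%). Besides those of the ER and Phb2, the genes called in the SC and TTC pairs included Cdc37l1 (higher) in the SC pair and Stub1 and Vcp (lower) in the TTC pair. Stub1 (CHIP), the ubiquitin ligase that acts on Hsp70 and Hsp90 clients, stood at 21.9, 16.8, 58.9 and 29.8 RPM, and Vcp, the segregase that extracts ubiquitinated proteins, at 26.2, 34.8, 47.2 and 24.6 RPM. Like Cct2, both were highest in WT TTC. Cdc37l1, an Hsp90 co-chaperone, stood at 1.43, 8.98, 12.3 and 8.21 RPM.

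Finally, genotype was fitted over all 4 libraries with the code as a second term (limma on log2(RPM + 1), 2314 transcripts, 1 residual degree of freedom), which takes the difference between the pairs as error. No transcript was called for genotype (0%), among the 40 members or beyond, and edgeR's quasi-likelihood test also called 0, whereas DESeq2 called 1 transcript lower, not a member. At an unadjusted p under 0.05 in limma, 86 transcripts were higher and 167 lower, of which 3 and 2 were members. The 3 were Cct5 (0.60 ± 0.21 SE; limma, adjusted p = 0.403), Dnajc15 (0.75) and Dnajc5 (0.58), and the 2 were Hspa9 (-1.22 ± 0.25 SE; limma, adjusted p = 0.328) and Dnajc8 (-1.21). For the code, 1 transcript was called higher in the TTC libraries (0.0432%), and it was not a member; 4 members had an unadjusted p under 0.05, all higher (limma: Hspa9 0.85, Hspa12a 1.66, Bag1 0.72 and Ppib 0.67), against 321 higher and 135 lower of all transcripts. Over all 67 genes, both KO libraries lay above both WT libraries for 15 (22.4%, against 12.4% of all transcripts), and both WT libraries above both KO libraries for 6 (8.96%, against 14.0%). A transcript with 0 reads in a KO and in a WT library can enter neither count. Per library 4 to 11 of the 67 members had 0 reads, against 1215 to 1801 of 6352 transcripts. Shares among transcripts of similar level were not computed, so the difference cannot be read as a trait of the members.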

How the data were processed

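Ribosome footprints of harringtonine-treated cortical neurons were analysed in 4 libraries, 1 per condition. The authors deposited 1 table of RPM (reads per 1000000 reads of the library) at the initiation sites of 6352 transcripts. The submitters' processing notes name Bowtie, SAMtools, bedtools and GRCm38/mm10. Versions, counting window and annotation are not given in the sources used here. All RPM values (100%) were multiples of 1 read within a tolerance of 1e-06, so whole reads and library totals were recovered. Symbols for 6349 transcripts were taken from the gene list given with the paper through transcript identifiers, 38 of them mended for an extra zero. Positions and promoters are from RefSeq (GRCm38.p6), which held 66 of the 67 members.

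Pairs of libraries were compared with exact conditional binomial tests on reads, and the difference between the KO and WT ratios of the pairs with an exact conditional test on the 4 counts. The fit over 4 libraries used limma 3.58.1 on log2(RPM + 1) with a filter at a mean of 5 RPM. Alternatives were other scalings, no filter, a pseudocount of 0.1 RPM, edgeR 4.0.16 and DESeq2 1.42.0 on reads, and a chi-square test scaled for the scatter between libraries. The exact tests were tested on simulated data with counting error only, and limma and edgeR at their main settings on simulated data with added scatter. DESeq2, the other settings and the scaled chi-square test were not. Python 3.11.15, scipy 1.17.1 and R 4.3.3 were used. Named were members called in any comparison, those with a mean of at least 20 RPM, all CCT subunits, and at least 3 genes per compartment, plus other folding genes called in the SC or TTC pair, at most 10, of which 1 is not reported here. Members described beyond this rule (Hsp90aa1, ER partners of Hspa5, Hspd1, Ppif, Ppig, Bag1) and Calr, Canx, Pdia6, Manf, Hyou1, P4hb and Erp44 were named after their values were seen. Members, lists and tests were chosen with earlier results of these data known. A floor of 3 reads was used for libraries at 0; intervals and floors cover counting error only.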

Additional observations from a re-analysis of the deposited data

Results flagged for a closer look

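In 5 genes the KO to WT ratio differed between the TTC and the SC pair by the exact test of that difference, which covers counting error only and was made across all transcripts. The values are log2 differences of the ratio in the TTC pair minus that in the SC pair. Hspa5, at 33.9 RPM in WT SC and 13.5 in KO SC, with 32.9 and 33.9 in the TTC libraries of WT and KO, gave 1.31 (exact test, adjusted p = 0.0174). Cct2 gave -1.03 (exact test, adjusted p = 1.47e-04), with WT TTC as the high library. Dnajb1, with 0, 8, 18 and 18 reads in WT SC, KO SC, WT TTC, KO TTC, gave -3.17 (exact test, adjusted p = 0.0322). Among the other folding genes Cdc37l1, lowest in WT SC, gave -2.57 (exact test, adjusted p = 0.0236), and Vcp, highest in WT TTC, gave -1.31 (exact test, adjusted p = 0.00793). The scatter between libraries beyond counting error was not part of this test.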

How the results depend on the processing

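No paired analysis was possible because each condition had 1 library and the labels give no replicate numbers. Of 283 alternatives computed, 204 were graded as the same, 63 kept the direction but lost the call, 16 moved a count or median and 0 reversed. The 204 hold calls of single genes that kept direction and threshold, and also counts and medians that stayed close to their main value. For example, members called higher in the TTC pair went from 4 to 6 under median-of-ratios factors and were graded as the same. Of 55 calls of single genes, 45 were kept when libraries were rescaled to the same sum and 44 under median-of-ratios factors, which shifted the pairs by 0.140 (SC), 0.060 (TTC), -0.095 (WT) and -0.175 (KO) on the log2 scale. Of those testable with a mean of at least 5 RPM, 49 were kept and 0 lost. That filter leaves the p-values unchanged and adjusts over fewer transcripts, so a call could hardly be lost under it. Of 42 testable with the chi-square test scaled for scatter, 0 were kept. Under that test, chosen after seeing the data, the counts of members called went to 0 in all pairs and directions. The SC pair gave 2 higher under median-of-ratios factors and 2 lower at a mean of at least 5 RPM, which leaves out Dnajc19 and Dnajc9. The KO pair gave 3 higher under either rescaling. With no filter on low values limma called 2 members lower for genotype (Hspa9 and Dnajc8) and 3 higher for the code (Dnajb1, Hspa12a and Hspa9). In that setting 26 and 38 of all transcripts were called for genotype and 182 and 104 for the code. There limma took the variance from all transcripts together (5955 total degrees of freedom, against 9.07 in the main fit). These calls thus do not rest on a gene's own scatter. DESeq2 called 0 and 1 transcripts for genotype and 8 and 14 for the code, none of them members. Median log2 differences in the SC pair became 0.088 for all members and 0.188 for the cytosol under median-of-ratios factors, and that of the mitochondria in the TTC pair 0.341 at a mean of at least 5 RPM. A read was worth 0.685 RPM in WT TTC, the shallowest library, so its values are the least precise.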
